A study of Mus musculus with 34 samples.

Results

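The clustered protocadherins are cell-surface adhesion proteins encoded in 3 gene clusters that lie side by side on mouse chromosome 18. Members were taken from the bulk RNA-seq count table by symbol, as genes named *Pcdha*, *Pcdhb* or *Pcdhg* followed by the number or letter of a cluster isoform. This gave 58 of the 54532 genes in the table, with 14 in the α cluster, 22 in the β cluster and 22 in the γ cluster. Dorsal hippocampal RNA came from 8 C57BL/6J mice, all male, 2 to 3 months old and without a transgene or virus, with 1 library per mouse. The SOR group held 4 mice that were trained in spatial object recognition, in which a mouse explores objects at fixed places in an open field, and were euthanized 1 h after learning. The homecage group held 4 mice that were not trained. The comparison asked whether the members differed in RNA level between the groups at this single time.

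Each neuron uses only some of the clustered protocadherins. A promoter in front of each variable exon is chosen largely at random, with CTCF and cohesin forming the loop to a distant enhancer, while the isoforms called C-type are used more uniformly. The extracellular domains of these proteins bind the same combination on another membrane, which lets a neurite tell its own branches from those of other neurons. In the α and γ clusters each variable exon is spliced to constant exons that the whole cluster shares, and these encode a common intracellular end. The β genes are single-exon genes without a shared constant part.

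On GRCm38 with the GENCODE M21 annotation, the members were all on the plus strand. The α cluster covered chr18:36930184-37187661 (257 kb), the β cluster chr18:37264938-37524479 (260 kb) and the γ cluster chr18:37661793-37841873 (180 kb). GENCODE M21 gives the symbol *Pcdha11* to 2 α records. The record ENSMUSG00000102206 is called *Pcdha11* here, and the other is called by its identifier, ENSMUSG00000007440. *Pcdhgb8* is annotated as a polymorphic pseudogene, a gene that is intact in some strains only.

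The shared exons bear on every α and γ value. Stretches of 150 bases, the length of 1 sequencing read, were taken from each member's longest annotated transcript. They were matched in the sense direction only, so overlap with antisense genes was not counted. A median of 53.7% of them in the α cluster and 43.4% in the γ cluster also occurred in a transcript of another gene. In the β cluster 18 of 22 members shared none, and the most was 6.72% for *Pcdhb21*, which overlaps its neighbour. *Pcdha4* stood at 95.5%, since annotated read-through transcripts that run from the α into the γ cluster hold nearly all of it. Of these read-through genes, *Gm42416* was assigned 4.49 counts in 1 library and 0 in the others, while *Gm37013* and *Gm37388* were listed at 0 in all 8. *Pcdhgc5* shared least in the γ cluster, at 14.6% of the stretches in its longest transcript. Over all its annotated exons, 27.8% of the bases were also held by other members. The deposited values are estimated counts per gene, and 98.1% of the members' values were not whole numbers (off by more than 0.005), against 98.0% of all values above 0. How shared reads were divided among isoforms is not given in the sources used here. In this respect values of single α and γ members are less certain than those of β members and than the sum over a cluster.

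Library totals lay between 51406011 and 81525977 counts, and the members held 0.0746% to 0.0861% of them. All 58 members passed the filter on low counts, in a table of 22018 genes tested. The training labels were checked with the activity-regulated genes *Arc*, *Fos* and *Egr2*. *Arc* was at 91.9 ± 4.98 CPM (counts scaled to a common library size) in homecage and 246 ± 21 CPM in trained mice (SD, n = 4 each; log2 fold change 1.42, edgeR quasi-likelihood test, adjusted p = 8.27e-06). *Fos* had a log2 fold change of 1.89 (edgeR adjusted p = 0.00477) and *Egr2* of 2.75 (edgeR adjusted p = 4.66e-04).

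No clustered protocadherin passed the test. With edgeR's quasi-likelihood test and Benjamini-Hochberg adjustment over all genes tested, 0 of 58 members reached an adjusted p under 0.05, where 0.309% of all genes tested did. At an unadjusted p under 0.05 the count was also 0 of 58, against 10.1% of all genes tested. DESeq2, limma-voom and edgeR's likelihood ratio test gave 0 calls and 0 members at an unadjusted p under 0.05 as well. The lowest unadjusted p among the members was 0.0767, for *Pcdhga9*, and the lowest adjusted p was 0.549.

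The intervals say how large a difference the data still allow. For 51 of 58 members the 95% interval of the fold change lay within 1.4-fold in either direction, the fold change the study used as its threshold, against 58.9% of all genes tested. The count was 11 of 14 in the α cluster, 19 of 22 in the β cluster and 21 of 22 in the γ cluster. The 7 members whose interval reached past 1.4-fold were *Pcdha7*, *Pcdha8*, *Pcdha11*, *Pcdhb1*, *Pcdhb2*, *Pcdhb5* and *Pcdhga10*. A fitted difference of less than 0.1 on the log2 scale was found for 39 of 58 members.

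**Figure D1:**
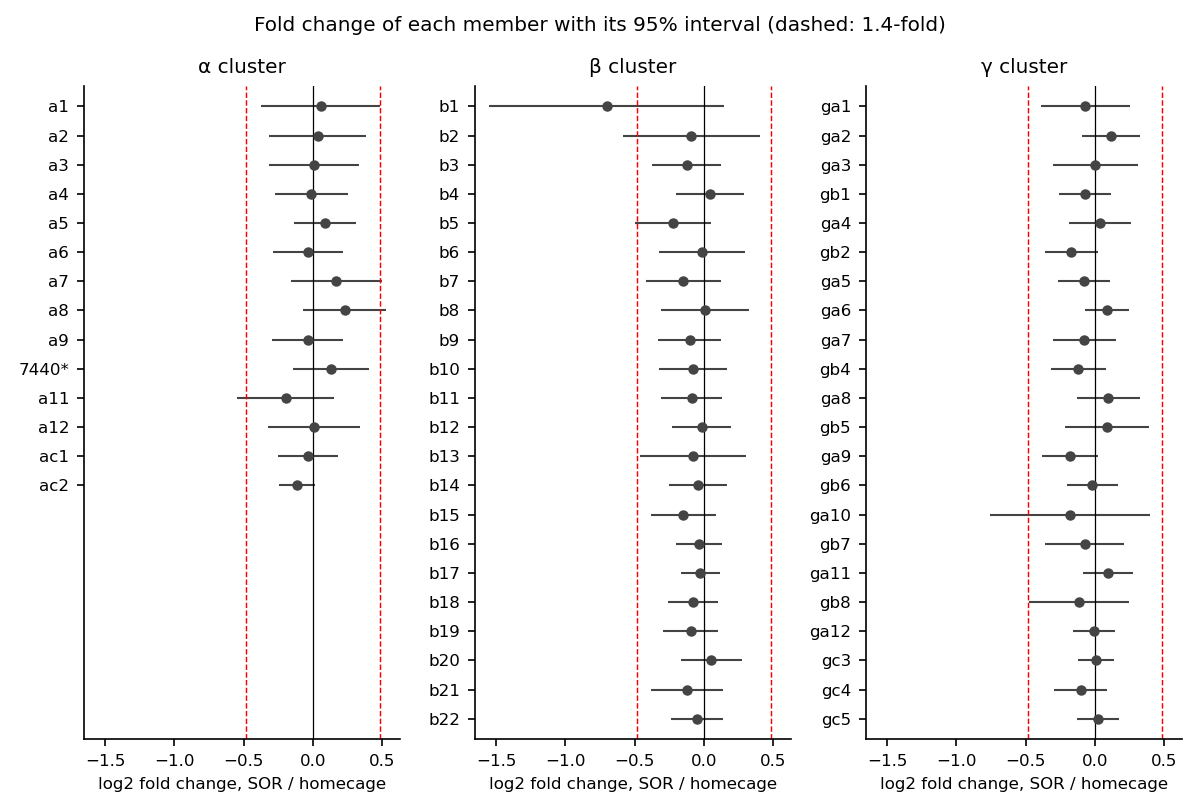
Log2 fold change of each member between SOR and homecage mice (x axis) with its 95% interval from edgeR's quasi-likelihood fit, in chromosomal order from top to bottom. The dashed lines mark 1.4-fold. All 58 intervals include 0, and the widest is that of *Pcdhb1*.

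Fitted differences were small in all 3 clusters. The median log2 fold change was 0.01 in the α cluster, -0.08 in the β cluster and -0.04 in the γ cluster, beside -0.02 over all genes tested. Lower fitted values in SOR mice were found for 6 of 14 α, 19 of 22 β and 13 of 22 γ members, together 65.5% of the members against 56.2% of all genes tested. Higher fitted values were found for 20 of 58, against 43.8% of all genes tested. These counts moved with the scaling and with single mice. With TMM or RLE factors 33 of 58 members, 17 of them β genes, had lower values, and the median over all genes tested was 0.00. Without SOR replicate 1 the median was 0.13 in the α cluster, -0.04 in the β cluster and 0.00 in the γ cluster, and 3 α, 13 β and 11 γ members had lower values. Without homecage replicate 3 the β median was -0.03 with 15 of 22 lower.

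Sums over a cluster do not depend on how reads were divided among its isoforms, as long as the estimated counts add up reads. Whether they were scaled from abundance is not given in the sources used here. The α cluster summed to 134, 136, 132 and 137 CPM in the homecage mice and to 113, 136, 142 and 135 CPM in the SOR mice. Except for SOR replicate 1, the SOR mice lay at or within a few CPM of the homecage range. The mean was 135 ± 2.23 CPM in the homecage group and 131 ± 12.8 CPM in SOR mice (SD, n = 4 each), a difference of -0.04 ± 0.0746 on the log2 scale (SE).

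The β sums overlapped in the same way. They were 225, 225, 248 and 225 CPM in the homecage mice and 197, 233, 220 and 232 CPM in the SOR mice. Homecage replicate 3 stood above the other homecage mice, and SOR replicate 1 below all others. With means of 231 ± 11.5 and 221 ± 16.7 CPM, the difference was -0.07 ± 0.0663 (log2, SE), close to its standard error.

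The γ cluster held more counts than the α and β clusters together. It summed to 433, 450, 464 and 461 CPM in the homecage mice and to 412, 459, 451 and 486 CPM in the SOR mice. The lowest and the highest sum were both from SOR mice, and the homecage values lay between them. The means were 452 ± 14.1 and 452 ± 30.7 CPM. The difference of 0.00 ± 0.0545 (log2, SE) was negative with upper-quartile factors (-0.00286) and positive with TMM factors (0.017), RLE factors (0.0183) or library size alone (0.00388).

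SOR replicate 1 had the lowest sum of all 8 mice in each cluster, under each of the 4 scalings. It was the lowest library for 30 of 58 members (8 α, 13 β and 9 γ) and the highest for 0. Homecage replicate 3 was the highest library for 14 of 58 members, 11 of them in the β cluster. The same counts over all genes tested were not made, so these are not read as a trait of the members. The upper-quartile library size of SOR replicate 1 was 1.03 times its total, against 0.978 to 1.02 times in the other 7 mice. With library size alone SOR replicate 1 summed to 116 CPM in the α cluster, against 134 to 142 CPM in the other 7 mice. It summed to 204 CPM in the β cluster (others 220 to 253 CPM) and to 425 CPM in the γ cluster (others 431 to 482 CPM). The part of the scaling in its low sums was not tested. SOR replicate 1 also had the highest sum of the choroid plexus markers *Ttr*, *Kl*, *Folr1* and *Kcnj13* (3906 CPM, against 24.1 to 1060 CPM in the other 7 mice). The part of this tissue in the members' values was not tested. Leaving this mouse out put the mean of the sums in the SOR group at 137 CPM for the α, 229 CPM for the β and 465 CPM for the γ cluster.

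**Figure D2:**
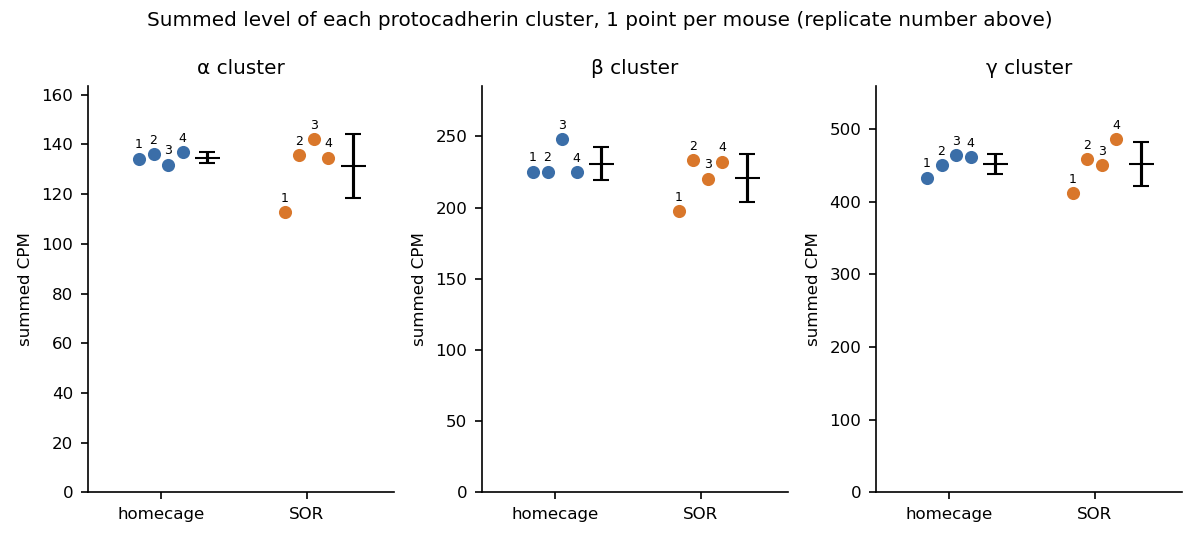
Summed CPM (y axis, from 0) of the α, β and γ cluster in each homecage and SOR mouse, with the replicate number above each point, and the mean with its SD (n = 4) as a bar to the right. SOR replicate 1 is lowest in each panel, and the groups overlap in all 3.

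The division of protocadherin RNA among the clusters was nearly the same in both groups. The α cluster held 16.5 ± 0.596% of all members' counts in homecage and 16.3 ± 0.848% in SOR mice, and the β cluster 28.2 ± 0.909% and 27.5 ± 0.5% (SD, n = 4 each). The γ cluster held 55.3 ± 0.618% and 56.2 ± 0.934%. These shares do not depend on library scaling. For each cluster the groups overlapped.

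Within the γ cluster, isoforms fall into types A, B and C by sequence. The A-type isoforms held 24.0 ± 0.511% of all members' counts in homecage and 24.7 ± 0.620% in SOR mice. The B-type isoforms held 11.7 ± 0.389% and 11.4 ± 0.455%. The 5 C-type isoforms of the α and γ clusters together held 27.9 ± 0.909% and 28 ± 1.23%, so that a small set of isoforms carried a large part of the counts in either group.

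Levels per kb of exon differed far more between members than between groups. The highest member was 149 times the lowest, and the ratio was 34.6 in the α, 61.4 in the β and 14.4 in the γ cluster. The first and the β ratio rest on *Pcdhb1* (0.0849 CPM per kb, 4.98 to 25.6 counts per library). The next lowest β gene, *Pcdhb6*, was at 1.02 CPM per kb. In the α cluster the highest member, *Pcdhac2*, stood apart from the next, *Pcdha4*, at 1.85 CPM per kb. Median levels were 1.16 CPM per kb in the α, 2.32 in the β and 2.82 in the γ cluster. The 3 highest members of all were the C-type isoforms *Pcdhgc5* (12.6 CPM per kb), *Pcdhgc3* (10.0 CPM per kb) and *Pcdhac2* (9.96 CPM per kb). The other C-type isoforms were not among the high ones, with *Pcdhgc4* at 1.72 and *Pcdhac1* at 1.26 CPM per kb. Reads that come from the shared constant exons enter these levels in a way that the files do not show.

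**Figure D3:**
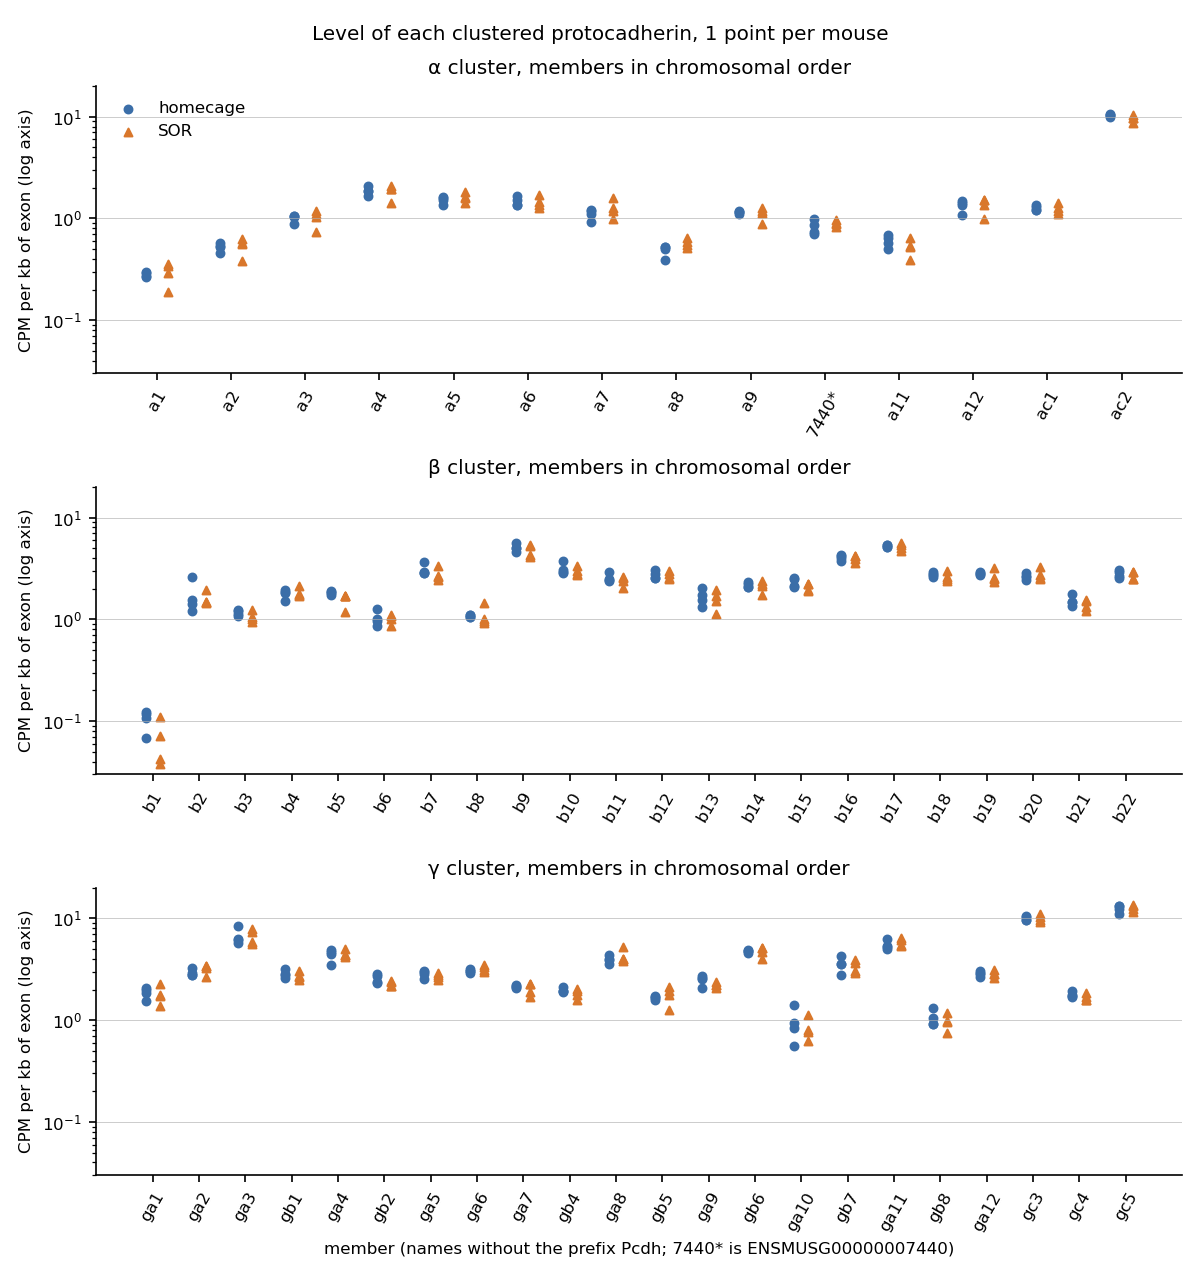
Level of each member in CPM per kb of annotated exon (log axis) in each of the 4 homecage mice (circles) and 4 SOR mice (triangles), in chromosomal order within each cluster. *Pcdhgc5*, *Pcdhgc3* and *Pcdhac2* lie near 10 CPM per kb in all mice, *Pcdhb1* near 0.1, and the groups overlap for every member except *Pcdhb5*.

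*Pcdhac2*, the last variable exon of the α cluster, made up 45.2% of the α counts in homecage and 43.0% in SOR mice. It was at 57.8, 61.7, 63.1 and 61.3 CPM in the homecage mice and at 50.6, 56.6, 61.5 and 56.6 CPM in the SOR mice. All but 1 of the SOR mice lay below all homecage mice. The log2 fold change was -0.11 with an interval of -0.24 to 0.02 (exact permutation p = 0.0857, edgeR adjusted p = 0.551). *Pcdhac1*, the other C-type α isoform, had a mean of 6.89 ± 0.334 CPM in the homecage group and 6.72 ± 0.701 CPM in SOR mice, with an interval of -0.25 to 0.18.

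Of the other α isoforms, *Pcdha4*, *Pcdha5*, *Pcdha6* and *Pcdha12* had the highest levels, between 1.35 and 1.85 CPM per kb. *Pcdha1* and *Pcdha2*, the first in the cluster, had the lowest, at 0.287 and 0.527 CPM per kb. *Pcdha1* was at 1.59, 1.45, 1.57 and 1.42 CPM in the homecage mice and at 1.01, 1.90, 1.54 and 1.84 CPM in the SOR mice. Its SOR values thus spread on both sides of the homecage values. *Pcdha2* behaved alike, at 2.46 to 3.05 CPM in homecage mice and 2.04 to 3.35 CPM in SOR mice.

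The α members with the highest fitted log2 fold changes were *Pcdha8* (0.23), *Pcdha7* (0.17) and ENSMUSG00000007440 (0.13). *Pcdha8* was at 2.70, 2.82, 2.08 and 2.78 CPM in the homecage mice and at 2.71, 2.91, 3.45 and 3.13 CPM in the SOR mice. Homecage replicate 3 was well below the others, and SOR replicate 1 lay inside the homecage range. The interval was -0.07 to 0.53 (exact permutation p = 0.0857, edgeR adjusted p = 0.616). *Pcdha7* was at 4.95 to 6.53 CPM in the homecage group and 5.25 to 8.47 CPM in SOR mice, and ENSMUSG00000007440 at 3.74 to 5.24 and 4.46 to 5.17 CPM.

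At the other end of the α cluster's changes stood *Pcdha11* (-0.20), *Pcdhac2* (-0.11) and *Pcdha9* (-0.04). *Pcdha11* was at 4.86, 4.28, 3.78 and 5.24 CPM in the homecage mice and at 3.97, 4.08, 4.82 and 2.96 CPM in the SOR mice. Only SOR replicate 4 lay below the homecage range. Its interval ran from -0.55 to 0.15 (edgeR adjusted p = 0.741). *Pcdha9* was at 6.13 ± 0.120 CPM in the homecage group and 5.98 ± 0.890 CPM in SOR mice.

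In the β cluster the highest levels per kb were those of *Pcdhb17* (5.21 CPM per kb), *Pcdhb9* (4.89), *Pcdhb16* (4.0), *Pcdhb10* (3.06) and *Pcdhb7* (2.92). *Pcdhb17* was among the most even members, at 24.1, 24.8, 24.0 and 24.9 CPM in the homecage mice and 21.7, 25.1, 23.5 and 26.0 CPM in the SOR mice. Its interval was -0.17 to 0.12 on the log2 scale. *Pcdhb16* was at 21.2 ± 1.29 and 20.7 ± 1.62 CPM, *Pcdhb9* at 15.5 ± 1.25 and 14.4 ± 1.95 CPM, and *Pcdhb10* at 8.95 ± 1.18 and 8.48 ± 0.780 CPM.

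*Pcdhb5* was the single member whose groups did not overlap. Of all genes tested, 3.96% had all SOR values below all homecage values, and 6.95% had groups apart in either direction. It was at 6.10, 6.48, 6.59 and 6.70 CPM in the homecage mice and at 4.21, 6.00, 6.03 and 5.97 CPM in the SOR mice. SOR replicate 1 was far below the other SOR mice, which lay just under the lowest homecage mouse. The log2 fold change was -0.22, with an interval of -0.50 to 0.05 (edgeR adjusted p = 0.592). The exact permutation test on log2 CPM gave p = 0.0286, the smallest that 4 against 4 can give, before any correction for the 58 members. Groups that do not overlap always give this p, so it adds nothing to that observation.

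*Pcdhb1*, the first β gene, had the largest fitted change and the lowest level, at 0.0849 CPM per kb. It was at 0.176, 0.281, 0.306 and 0.321 CPM in the homecage mice and at 0.109, 0.283, 0.183 and 0.0978 CPM in the SOR mice. The groups overlapped, and the values rest on 4.98 to 25.6 counts per library. The log2 fold change was -0.70, with an interval of -1.55 to 0.15 (exact permutation p = 0.143, edgeR adjusted p = 0.582). *Pcdhb6*, the next lowest per kb, was at 3.85 ± 0.660 and 3.82 ± 0.399 CPM.

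*Pcdhb7* had the third lowest fitted log2 fold change among the β genes, -0.15. It was at 10.2, 9.91, 12.8 and 10.1 CPM in the homecage mice and at 8.59, 9.24, 9.13 and 11.8 CPM in the SOR mice. All but 1 SOR mouse lay below the homecage range, and the interval was -0.42 to 0.12 (edgeR adjusted p = 0.744). Only *Pcdhb20* (0.05), *Pcdhb4* (0.04) and *Pcdhb8* (0.01) had fitted changes above 0 in the β cluster. The highest SOR value stood apart for *Pcdhb4* (7.89 CPM in replicate 3) and *Pcdhb8* (5.00 CPM in replicate 2). *Pcdhb20* was at 9.40 ± 0.577 and 9.75 ± 1.21 CPM.

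*Pcdhgc5* and *Pcdhgc3*, C-type isoforms at the end of the γ cluster, made up 21.1% and 12.1% of the γ counts in homecage mice and 21.5% and 12.2% in SOR mice. *Pcdhgc5* was at 85.0, 101, 101 and 93.7 CPM in the homecage mice and at 87.6, 95.4, 102 and 104 CPM in the SOR mice. *Pcdhgc3* was at 52.5, 52.9, 57.4 and 56.2 CPM in the homecage mice and at 56.3, 50.7, 53.3 and 60.4 CPM in the SOR mice. The groups overlapped for both. Their intervals were among the narrowest, -0.12 to 0.18 for *Pcdhgc5* and -0.12 to 0.14 for *Pcdhgc3*. *Pcdhgc4*, an isoform known for its role in neuronal survival, was at 9.98 ± 0.6 and 9.30 ± 0.752 CPM, with an interval of -0.29 to 0.09.

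After these, *Pcdhga3* (6.64 CPM per kb), *Pcdhga11* (5.66) and *Pcdhgb6* (4.73) had the highest levels in the γ cluster. *Pcdhga3* was at 29.4, 28.8, 39.7 and 27.2 CPM in the homecage mice and at 26.3, 34.5, 27.5 and 37.3 CPM in the SOR mice. Each group held high and low mice. The log2 fold change was 0.00 with an interval of -0.30 to 0.31. *Pcdhgb6* was steadier, at 22.3 ± 0.512 CPM in the homecage group and 22.1 ± 2.58 CPM in SOR mice.

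The highest fitted log2 fold changes of the γ cluster were those of *Pcdhga2* (0.12), *Pcdhga8* (0.10) and *Pcdhga11* (0.09). *Pcdhga2* was at 15.1, 13, 13.1 and 13.7 CPM in the homecage mice and at 12.4, 15.9, 16 and 15.4 CPM in the SOR mice. SOR replicate 1 was the lowest of the 8 mice, and the other SOR mice were the highest. With this mouse in the fit the interval was -0.09 to 0.33 (edgeR adjusted p = 0.742). *Pcdhga11* was at 26.1 ± 2.52 and 27.8 ± 2.27 CPM. *Pcdhga8* was at 18.7 ± 1.48 and 20.0 ± 3.06 CPM, with SOR replicate 4 alone at 24.6 CPM.

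The lowest fitted log2 fold changes of the γ cluster were those of *Pcdhga9* (-0.18), *Pcdhga10* (-0.18) and *Pcdhgb2* (-0.17). *Pcdhga9* was at 14.6, 14.1, 11.7 and 15.3 CPM in the homecage mice and at 11.5, 13.1, 12.3 and 12.3 CPM in the SOR mice. Homecage replicate 3 lay among the SOR mice, and the other homecage mice lay above them all. The interval was -0.38 to 0.02 (exact permutation p = 0.114, edgeR adjusted p = 0.549). *Pcdhgb2* was at 11.6, 13.2, 11.4 and 13.8 CPM in the homecage mice and at 10.6, 11.6, 10.6 and 11.8 CPM in the SOR mice. Its groups overlapped between 11.4 and 11.8 CPM, and the interval was -0.36 to 0.02 (exact permutation p = 0.171, edgeR adjusted p = 0.551).

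*Pcdhga10* and *Pcdhgb8* had the lowest levels of the γ cluster, at 0.879 and 1.01 CPM per kb. *Pcdhga10* was at 3.95, 4.44, 2.61 and 6.60 CPM in the homecage mice and at 2.97, 5.34, 3.59 and 3.77 CPM in the SOR mice. The lowest and the highest value were both from homecage mice, 2.53-fold apart. Its interval, -0.75 to 0.40, was the widest of the γ cluster. *Pcdhgb8* was at 4.86 ± 0.904 and 4.48 ± 0.812 CPM.

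Members also differed in how evenly they were expressed across mice. The spread between replicates beyond counting error, the biological coefficient of variation of the edgeR fit, had a median of 12.1% and ran from 6.57% to 27.1%, beside a common value of 14.1% over all genes tested. It was lowest for *Pcdhgc3* (6.57%), *Pcdhac2* (6.58%) and *Pcdhgc5* (7.37%), the most abundant members. It was highest for *Pcdhb1* (27.1%), *Pcdhga10* (26.7%) and *Pcdhb2* (23.1%). The fit draws each value toward that of genes of like abundance, so this order follows abundance in part. For α and γ members it can also hold error from the division of shared reads. *Pcdhb2* was at 3.40, 4.38, 7.36 and 3.93 CPM in the homecage mice and at 4.19, 4.12, 5.51 and 4.06 CPM in the SOR mice. Homecage replicate 3 stood well above all other mice.

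**Figure D4:**
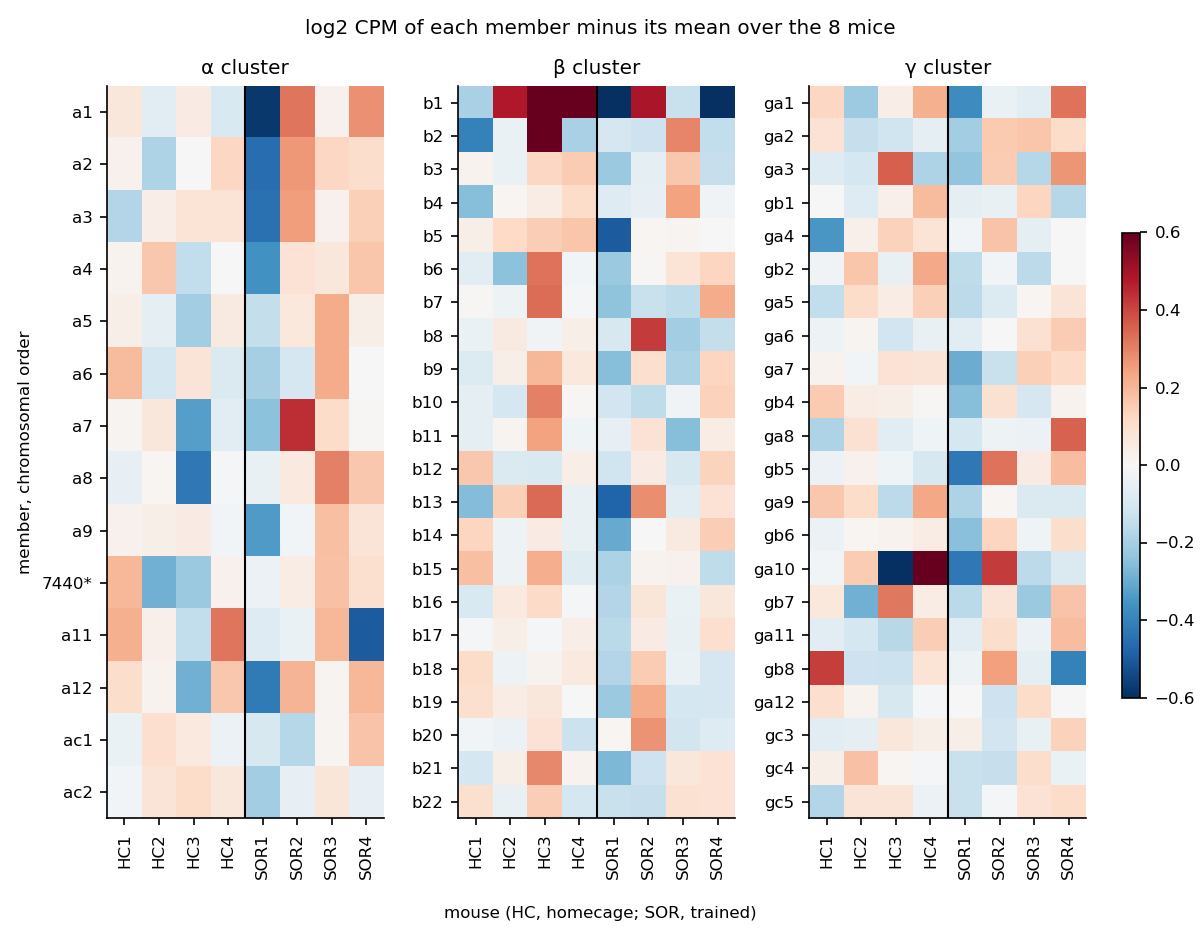
Log2 CPM of each member (rows, chromosomal order) in each mouse (columns) minus the member's mean over the 8 mice, with red for above and blue for below, clipped at 0.6. SOR replicate 1 is the lowest mouse for 30 of 58 members, and homecage replicate 3 the highest for 11 of 22 β genes.

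Position in the cluster and level were related loosely. Spearman's rho between order along the chromosome and level per kb, given as a description, was 0.37 over the 14 α, 0.47 over the 22 β and 0.08 over the 22 γ members. The points share libraries, and α and γ members share exons. The first member was the lowest in the α cluster (*Pcdha1*) and in the β cluster (*Pcdhb1*), while in the γ cluster the first, *Pcdhga1*, ranked at 18 of 22.

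The members' promoters shared features that the symbol rule did not use. In the window from 250 bases before to 50 after the annotated start, the median GC content was 39.7% over the 58 members and 55.3% over the 21977 tested genes that have such a window. A median of 6 CpG dinucleotides lay in a member's window, against 12 over all. An observed to expected CpG ratio of at least 0.6 was found for 22 of 58 members (37.9%), against 47.9% of all. By cluster the count was 9 of 14 α, 3 of 22 β and 10 of 22 γ members. The 5 C-type members had a median GC content of 54.7% and a median of 12 CpG dinucleotides. The letters CGCT, known as the core of a conserved element in protocadherin promoters, occurred on either strand in the window of 56 of 58 members (96.6%) and of 70.9% of all tested genes. Each such match includes a CG, which 56 of 58 members and 96.5% of all windows hold. So short a match does not show that a promoter holds the conserved element, which was not searched for. The members without a match were *Pcdhb22* and *Pcdhga12*, and a window without these letters says nothing about the factors that bind there.

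Genes that work on the clusters were counted beside the members. The regulator list held 23 genes of promoter looping, DNA methylation and silencing (such as *Ctcf*, *Rad21*, *Smchd1*, *Dnmt3b* and *Setdb1*), all tested. With edgeR's quasi-likelihood test 0 of 23 were called and 1 had an unadjusted p under 0.05, against 10.1% of all genes tested. The median log2 fold change was 0.01. DESeq2, limma-voom and edgeR's likelihood ratio test called 0 as well. The gene with that p was *Nipbl*, which loads cohesin onto chromatin. It was at 99.3, 98.7, 98.0 and 92 CPM in the homecage mice and at 104, 108, 102 and 100 CPM in the SOR mice. The groups did not overlap, where 6.95% of all genes tested had groups apart in either direction, and the log2 fold change was 0.09 (edgeR adjusted p = 0.477). *Mau2*, the partner of *Nipbl*, had a log2 fold change of -0.07 and the cohesin subunit *Rad21* of -0.06 (edgeR adjusted p = 0.579 and 0.704).

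The partner list held 24 genes for proteins that signal with or cleave protocadherins, such as the focal adhesion kinases, the WAVE complex and the γ-secretase. By edgeR's quasi-likelihood test 0 of 24 were called and 1 had an unadjusted p under 0.05, against 10.1% of all genes tested. The median log2 fold change was -0.01. *Wasf2*, a WAVE subunit that drives actin branching, was at 7.92, 8.21, 8.74 and 9.38 CPM in the homecage mice and at 10.6, 12, 10.5 and 9.42 CPM in the SOR mice. SOR replicate 4 lay just above the highest homecage mouse, and the groups did not overlap, where 6.95% of all genes tested had groups apart. The log2 fold change was 0.31 (edgeR adjusted p = 0.289), and DESeq2 called this gene. Over all genes DESeq2 called 442, against 68 by edgeR's quasi-likelihood test. *Aph1a*, a γ-secretase subunit, had a log2 fold change of 0.30 (edgeR adjusted p = 0.532) and the synaptic adhesion gene *Nlgn1* of -0.08 (edgeR adjusted p = 0.547).

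The δ-protocadherins are related adhesion genes outside the clusters. Of 10 tested, 0 were called and 0 had an unadjusted p under 0.05 by edgeR's quasi-likelihood test, and the median log2 fold change was -0.04. The other 3 tests also called 0. The smallest p belonged to *Pcdh10* (log2 fold change -0.16), *Pcdh9* (-0.07) and *Pcdh17* (-0.09), with edgeR adjusted p of 0.551, 0.642 and 0.674. SOR replicate 1 was the lowest of the 8 mice for *Pcdh10* (82.7 CPM), *Pcdh9*, *Pcdh17*, *Pcdh1* and *Pcdh19*. It was not the lowest for *Pcdh8*, *Pcdh20*, *Pcdh11x*, *Pcdh18* and *Pcdh7*. The same was not counted over all genes tested, so this is not read as a trait of these genes.

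Between and beside the clusters GENCODE M21 lists 32 other genes within 100 kb, mostly antisense transcripts and pseudogenes, of which 31 were in the table and 18 were tested. By edgeR's quasi-likelihood test 0 were called and 4 of 18 had an unadjusted p under 0.05, against 10.1% of all genes tested, beside a median log2 fold change of 0.05. The other 3 tests called 0. *BC037039*, on the minus strand across the start of *Pcdhgc3*, had a log2 fold change of 0.43, with 2.18 ± 0.242 CPM in the homecage group and 2.94 ± 0.592 CPM in SOR mice (edgeR adjusted p = 0.408). Whether the counting used strand is not given in the sources used here, so reads of this gene and of *Pcdhgc3* may not be told apart. *Hdac3*, a histone deacetylase gene past the γ cluster, was at 52.4, 52.0, 54.1 and 55.2 CPM in the homecage mice and at 48.0, 49.2, 51.8 and 50.2 CPM in the SOR mice. Its groups did not overlap (log2 fold change -0.10, edgeR adjusted p = 0.453). The pseudogene *Gm18150* in the α cluster had a log2 fold change of 0.52 at 0.327 ± 0.0124 and 0.471 ± 0.0685 CPM (edgeR adjusted p = 0.461), and its groups did not overlap either. Groups apart in either direction were found for 6.95% of all genes tested. The fourth gene, *Gm37446*, antisense to *Pcdhb12* and named after its values were seen, had a log2 fold change of -0.27 (edgeR adjusted p = 0.468). Its reads and those of *Pcdhb12* may likewise not be told apart.

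Cell type markers showed what the tissue held. Markers of excitatory neurons (*Slc17a7*, *Camk2a*, *Neurod6*) summed to 1782 to 2101 CPM in the homecage group and 1896 to 2201 CPM in SOR mice. CA1 markers summed to 149 to 170 and 154 to 175 CPM, CA3 markers to 120 to 141 and 126 to 141 CPM, and dentate granule markers to 223 to 257 and 198 to 251 CPM. Inhibitory neuron markers summed to 456 to 473 CPM in the homecage group and 440 to 494 CPM in SOR mice, and astrocyte markers to 561 to 599 and 510 to 577 CPM. Of 40 marker genes tested over 13 lists, 0 were called by edgeR's quasi-likelihood test and 7 of 40 had an unadjusted p under 0.05, against 10.1% of all genes tested. limma-voom called 0, edgeR's likelihood ratio test 1 (*Opalin*) and DESeq2 2 (*Opalin* and *Cldn5*).

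The sums of non-neuronal markers overlapped between the groups, except those of oligodendrocytes, the myelin-forming cells. The 4 markers of oligodendrocytes summed to 1576 to 1736 CPM in the homecage group and 1256 to 1566 CPM in SOR mice, without overlap, and 3 of the 4 had an unadjusted p under 0.05 (median log2 fold change -0.21). The 3 markers of microglia summed to 82.3 to 93.6 and 76.0 to 84.6 CPM, with 2 at an unadjusted p under 0.05 (median -0.21). Markers of oligodendrocyte precursors summed to 79.3 to 82.5 and 74.2 to 80.8 CPM, and those of endothelial cells to 69.6 to 83.4 and 74.5 to 79.5 CPM with 1 of 3 at an unadjusted p under 0.05. Red blood cell markers summed to 88.7 to 117 and 104 to 168 CPM, also with 1 of 3. Markers of serotonergic neurons, which rely on *Pcdhac2* for the spacing of their axons, were near the bottom of the range, at 1.21 to 1.89 and 1.01 to 1.87 CPM. Their part in the members' values was not tested. In bulk tissue, fewer cells of a type and less RNA per cell cannot be told apart.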

How the data were processed

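Dorsal hippocampal RNA of 4 homecage and 4 SOR mice was analysed, and groups were taken from the deposited sample labels. The values deposited by the authors are estimated counts per gene with decimals, 1 column per mouse, summarized with tximport without normalization. Per the paper's methods reads were aligned with STAR and counted with featureCounts in bcbio-nextgen on mm10. The study tested with edgeR after upper-quartile scaling and with RUVSeq factors, whose number its methods do not give. The main fit here has no such factor. The quantifier behind the summary is not given in the sources used here. The methods name a stranded total RNA kit, the labels polyA RNA.

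Counts were rounded to whole numbers and filtered with filterByExpr, and 22018 genes were scaled with upper-quartile factors. SOR was set against homecage with edgeR 4.0.16 in R 4.3.3 (quasi-likelihood F test), with p adjusted by Benjamini-Hochberg over all genes tested. Standard errors and 95% intervals came from that fit. CPM were computed from the unrounded counts and the same factors. For single members log2 CPM was permuted over all 70 assignments of mice, an exact two-sided permutation test whose smallest p is 0.0286. The labels name no batch. The chi-square per degree of freedom between replicates was 12.1 to 55.1, above counting error. Sums and medians over members have no test. Exon lengths, positions and shared stretches of 150 bases came from GENCODE M21, and promoter windows from the RefSeq GRCm38.p6 genome.

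Named by rule were the C-type members, the 5 highest and 2 lowest per kb and the 3 largest rises and falls of each cluster, members with groups apart, and the 3 smallest p of each other list. Members and lists (regulators, partners, δ-protocadherins, neighbours, cell type markers) were chosen with earlier results of these data known. Alternatives changed the scaling (TMM, RLE, library size), the filter (over 5 counts in 2 or more libraries, or none), the test (likelihood ratio in edgeR, DESeq2 1.42.0, voom of limma 3.58.1) or the terms (1 to 3 RUVs factors, a block for the replicate number). Others used unrounded counts or other gene lengths, or left out each mouse in turn. Spatial and single-nucleus samples were not analysed here.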

Additional observations from a re-analysis of the deposited data

Results flagged for a closer look

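A mouse far from the other 3 of its group was found in 9 of 128 groups tested, by the gap to the nearest mouse relative to the group's range. Chance alone gives about 1 in 20. In the homecage group all of these were replicate 3. It was high for *Pcdhb7* (12.8 CPM, others 9.91 to 10.2), *Pcdhga3* (39.7 CPM, others 27.2 to 29.4) and the summed β cluster (248 CPM, others 225). It was low for *Pcdha8* (2.08 CPM, others 2.70 to 2.82). In the SOR group, replicate 1 was low for *Pcdhb5* (4.21 CPM, others 5.97 to 6.03), the member whose groups did not overlap. Replicate 3 was high for *Pcdhb2* (5.51 CPM, others 4.06 to 4.19) and *Pcdhb4* (7.89 CPM, others 6.32 to 6.58). Replicate 2 was high for *Pcdhb8* (5.00 CPM, others 3.24 to 3.5), and replicate 4 for *Pcdhga8* (24.6 CPM, others 17.9 to 18.8). Of the 9, 6 concern β genes or their sum, where 22 of the 58 members are β genes. The β sum includes *Pcdhb7*, and all groups come from the same mice, so the flags are not independent. The β genes share few or no reads with other genes, and whether this bears on the flags was not tested.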

How the results depend on the processing

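In all 21 alternatives 0 of 58 members were called. The lowest adjusted p in any of them was 0.36 (*Pcdhac2*) and the lowest unadjusted p 0.0104 (*Pcdhga9*). An unadjusted p under 0.05 was reached without homecage replicate 3 by *Pcdhga9* and *Pcdhgb2*, without SOR replicate 1 by *Pcdhga2* and *Pcdhgb5*, without SOR replicate 2 by *Pcdhb1* and *Pcdhb19*, without SOR replicate 3 by *Pcdhac2* and without SOR replicate 4 by *Pcdhb7*. Each of these fits thus had 1 or 2 of 58 members at this p, where 8.26% to 10.4% of all genes tested reached it. The fitted change had the same sign in all settings for 26 of 58 members and not for 32. DESeq2 called 1 gene of the partner list, where the other alternatives called 0. It called 442 genes in all, against 68 by edgeR's quasi-likelihood test. The likelihood ratio test called 214 genes in all, and 297, 498 and 505 with 1, 2 and 3 RUVs factors added. Ranked by CPM without length, 2 of the 5 highest β members per kb stayed among the 5 highest. Leaving out 1 mouse at a time, the median log2 fold change ran from -0.04 to 0.13 in the α, -0.11 to -0.03 in the β and -0.05 to 0.00 in the γ cluster, and the summed level differed by -0.08 to 0.03, -0.09 to -0.01 and -0.04 to 0.04 (log2). The α median was -0.03 with limma-voom.

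Over all genes tested, mice with the same replicate number were not more alike than others. The correlation of same-numbered deviations was -0.083 to 0.044, beside -0.173 to 0.192 for other numbers, which does not exclude pairing. With the replicate number as a block 0 members were called, and 1 (*Pcdhac2*) had an unadjusted p under 0.05, against 9.06% of all genes tested. The medians were then 0.00 (α), -0.08 (β) and -0.04 (γ). Precision was set by 4 mice per group and, for *Pcdhb1*, by few counts.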
